A study of Mus musculus with 6 samples.

Results

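The lysyl oxidase family was followed in rat ovaries after exposure to cowshed PM2.5, the fine fraction of airborne dust, and in untreated controls. Its 5 members, Lox, Loxl1, Loxl2, Loxl3 and Loxl4, were chosen by gene name from a deposited table of 22487 genes. The only measured value in that choice, the highest summed count for a repeated name, was not needed because each name had 1 row. The family was proposed with earlier results of the same comparison known, so what follows describes its members and is not independent support for any of them. RNA sequencing covered 6 libraries of poly(A)-selected ovarian RNA, 3 from wild-type controls with no treatment and 3 from wild-type animals with the exposure, and the titles add 30 days, whose meaning they leave unsaid. The sources used here give no strain, age, route or dose. The organism label names the mouse, while the titles and the gene identifiers are of the rat. Whether each library is a separate animal is not stated in the labels, and the p-values therefore reflect only the spread between libraries, which may be technical.

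Lysyl oxidases are secreted copper enzymes that oxidise lysine and hydroxylysine side chains of collagen and elastin to reactive aldehydes, from which the covalent cross-links of the extracellular matrix form. Lox and Loxl1 are made with a propeptide that procollagen C-proteinase (Bmp1) removes, whereas Loxl2, Loxl3 and Loxl4 carry scavenger receptor cysteine-rich domains. Loxl2 cross-links collagen IV of basement membranes and also acts in the nucleus, where it interacts with the transcription factor Snai1. In the rat ovary, Lox has been studied in granulosa cells, where follicle-stimulating hormone and ligands of the TGF-beta family regulate it. The deposited table's own annotation puts all 5 members in the formation of allysine by lysyl oxidase.

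Total counts ranged from 47662338 to 60749578 per library, and tests covered the 15303 genes that averaged 0.5 FPKM or more (fragments scaled by transcript length and sequencing depth). All 5 members were among them, with summed counts from 981 for Loxl4 to 28406 for Loxl2. Markers of the labelled tissue were present in every library: the granulosa cell list summed to between 1237 and 7391 CPM (counts per library scaled for depth), the luteal list to between 3525 and 12380 CPM and the oocyte list to between 37.0 and 241 CPM.

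Loxl2 was the dominant lysyl oxidase transcript in control ovaries and was 5.46-fold lower after exposure. Lox, the founding member of the family, had a higher mean in exposed ovaries, with groups that overlapped, and Loxl1, Loxl3 and Loxl4 differed by less than 1.5-fold. Loxl2 was the 1 of 5 members that passed an adjusted p of 0.05 over all genes (edgeR), and the 1 of 5 whose groups did not overlap. Among all genes tested 0.928% passed, 0.738% lower and 0.190% higher, and 27.2% had groups that did not overlap. At an unadjusted p below 0.05 there were 2 members, Loxl2 and Lox, against 20.9% of all genes. The plot of transcript levels by library shows the 5 members side by side.

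**Figure D1:**
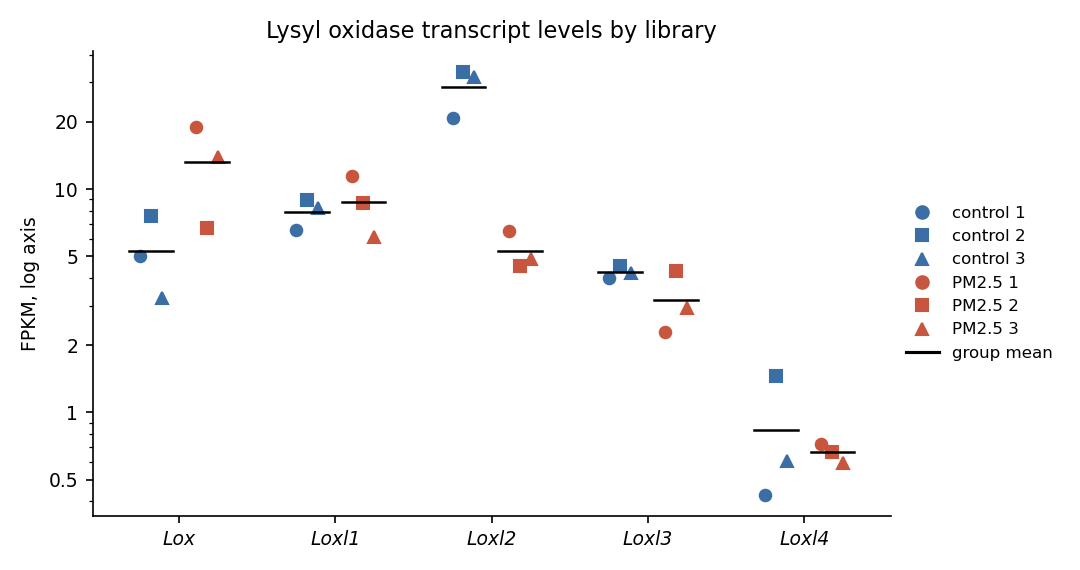
Levels of the 5 lysyl oxidases in FPKM on a log axis, with 1 point per library (control blue, PM2.5 red, marker shape for the replicate number) and a line at each group mean. Loxl2 lies between 20.8 and 33.5 in controls and between 4.50 and 6.47 in PM2.5 libraries, while the groups overlap for the other 4 members.

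Loxl2 (ENSRNOG00000016758) lies on the plus strand of chromosome 15 from 44683880 to 44773067. Positions here are those of the authors' table, and no source used here names their genome build. Its level was 20.8, 33.5 and 31.7 FPKM in controls 1 to 3 and 6.47, 4.50 and 4.86 FPKM in PM2.5 libraries 1 to 3. The lowest control was above 3 times the highest exposed library, and the spread within a group was small beside the gap, with an SD of 6.88 around a control mean of 28.7 FPKM and of 1.05 around an exposed mean of 5.27 FPKM (n = 3 each). The deposited counts behind these values were 5503, 9127 and 9064 in controls and 1871, 1511 and 1330 after exposure. On the CPM scale Loxl2 fell from 159 ± 38.0 to 29.1 ± 5.76 (mean ± SD, n = 3), a log2 fold change of -2.45 ± 0.24 (SE) (adjusted p = 0.0434, edgeR).

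By unadjusted p Loxl2 ranked 6 among the 15303 genes. Of the 113 genes called lower by edgeR, 12 had a higher mean CPM in controls than Loxl2, and 36 had a more negative fold change. Leaving out any 1 of the 6 libraries ended the call, with an adjusted p of 0.0646 to 0.230 in edgeR, while the log2 fold change stayed between -2.63 and -2.33 and the unadjusted p between 1.70e-05 and 0.000226. The table lists no gene that overlaps Loxl2. Its nearest neighbours are R3hcc1, which lies 1486 bases away on the opposite strand and had a log2 fold change of 0.32, and a long noncoding RNA gene of low count on the same strand. In whole ovary, fewer cells of a type and less RNA per cell cannot be told apart.

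Lox (ENSRNOG00000014426), on the minus strand of chromosome 18 from 45967343 to 46041477, encodes the enzyme that cross-links fibrillar collagens and elastin. Its level was 5.03, 7.59 and 3.26 FPKM in controls and 18.9, 6.69 and 13.98 FPKM in PM2.5 libraries. PM2.5 libraries 1 and 3 were above every control, but PM2.5 library 2 was below control 2, so the groups overlapped. On the CPM scale Lox had 10.5 ± 3.92 in controls and 26.2 ± 12.2 after exposure, a log2 fold change of 1.33 ± 0.44 (adjusted p = 0.168, edgeR). DESeq2 gave nearly the same fold change and called Lox higher (DESeq2 adjusted p = 0.0364), in a test that called 11.5% of all genes. Zfp475 overlaps the annotated span of Lox by 260 bases on the opposite strand and had at most 69 counts, against at least 335 for Lox.

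Loxl1 (ENSRNOG00000008680), on chromosome 8 from 58692593 to 58716356, encodes the member most tied to elastic fibres. It had 6.58, 8.92 and 8.25 FPKM in controls and 11.5, 8.63 and 6.11 FPKM after exposure. The exposed libraries lay on both sides of the controls, and the log2 fold change was 0.14 ± 0.27, with a negative value of -0.11 when PM2.5 library 1 was left out. An unnamed gene on the opposite strand overlaps Loxl1 by 1439 bases and had at most 32 counts.

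Loxl3 (ENSRNOG00000061373), on chromosome 4 from 115540685 to 115557466, encodes an enzyme known for its part in palate and spine development. It was the steadiest member in controls, at 3.999, 4.52 and 4.21 FPKM, and had 2.30, 4.30 and 2.95 FPKM after exposure. PM2.5 libraries 1 and 3 were below every control and PM2.5 library 2 lay within their range, for a log2 fold change of -0.42 ± 0.28 (edgeR adjusted p = 0.417). The mitochondrial protease gene Htra2 overlaps it by 551 bases on the opposite strand and had between 2428 and 4329 counts, more than Loxl3, so reads from the overlap may not be separated where the counting did not use strand. Htra2 had a log2 fold change of -0.37 (edgeR adjusted p = 0.360), and its part in the Loxl3 counts was not tested.

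Loxl4 (ENSRNOG00000015727), on chromosome 1 from 241397983 to 241416322, was the scarcest member. It had 0.429, 1.46 and 0.604 FPKM in controls and 0.724, 0.668 and 0.595 FPKM after exposure. Control 2 was above all other libraries, and without it the log2 fold change of -0.31 ± 0.49 became 0.32. Loxl4 had between 87 and 304 counts per library, the lowest depth of the family.

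The order of the levels within a library, which FPKM allows because it is per length, differed between the groups. In all 3 controls Loxl2 was highest, at 3.16 to 3.85 times Loxl1 in the same library. Loxl1, Lox and Loxl3 followed, but the ranges of Lox overlapped those of both neighbours, and Loxl4 was lowest in every library. In each PM2.5 library Loxl2 came after Lox and Loxl1, at 0.522 to 0.795 times Loxl1. Lox was highest in PM2.5 libraries 1 and 3 and Loxl1 in PM2.5 library 2, and the ranges of Lox and Loxl1 overlapped.

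As a share of the family's summed FPKM, Loxl2 made up 56.4, 59.8 and 66.0% in controls and 16.2, 18.2 and 17.0% in PM2.5 libraries. Lox made up 13.7, 13.6 and 6.78% in controls and 47.5, 27.0 and 49.1% after exposure, and the share of Loxl1 was 17.0 ± 0.974% in controls and 28.3 ± 6.69% after exposure (mean ± SD, n = 3), although its own level differed little. The groups were apart for these 3 shares, which sum to a fixed total and so are not independent of each other. The ratio of Loxl2 to Lox was 4.13, 4.41 and 9.75 in controls and 0.341, 0.673 and 0.347 after exposure. The summed FPKM of the family was 36.8, 55.9 and 48.1 in controls and 39.9, 24.8 and 28.5 in PM2.5 libraries, with PM2.5 library 1 above control 1. Without Loxl2 the sum was 16.04, 22.5 and 16.3 in controls and 33.4, 20.3 and 23.6 after exposure, again with an overlap.

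**Figure D2:**
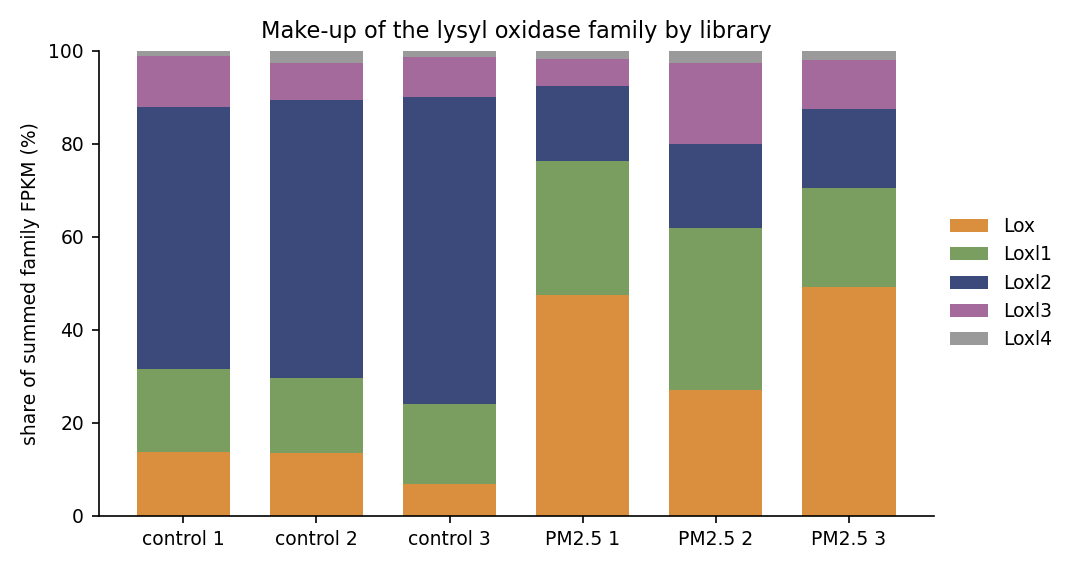
Stacked bars give the share of each lysyl oxidase in the family's summed FPKM, in percent, for each of the 6 libraries. The Loxl2 segment is between 56.4 and 66.0% in controls and between 16.2 and 18.2% in PM2.5 libraries, while the Lox segment is between 6.78 and 13.7% and between 27.0 and 49.1%.

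Genes that work with the family were taken from lists of its substrates, processing enzymes, copper supply and regulators. Of 93 tested genes in these lists 2 changed, both lower, P4ha1 and Tgfb1, and the median log2 fold change was 0.10, against 0.00 over all genes tested. At an unadjusted p below 0.05 there were 13 higher and 10 lower, and DESeq2 called 5 higher and 7 lower. Over all genes tested the shares were 0.928% in edgeR, 20.9% at an unadjusted p below 0.05 and 11.5% in DESeq2, and the lists' unadjusted and DESeq2 counts lie near these shares.

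Among the fibrillar collagens, the main substrates of Lox, none of 10 tested genes passed in edgeR, 3 had an unadjusted p below 0.05, all lower, and DESeq2 called 1 lower. Col1a1, the main chain of type I collagen, had 448, 577 and 358 CPM in controls and 553, 491 and 390 CPM after exposure. Col27a1, a fibrillar collagen of cartilage, stood lower in every exposed library, with 184, 143 and 298 CPM in controls and 34.1, 52.3 and 81.9 CPM in PM2.5 libraries. Its log2 fold change was -1.89 ± 0.40 (edgeR adjusted p = 0.0792), and DESeq2 called it lower. Col5a1 at -0.41 ± 0.17 and Col5a3 at -1.06 ± 0.45, chains of type V collagen, did not pass in either test. Without PM2.5 library 2 Col5a3 was at -1.75.

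The collagen IV chains form the network of basement membranes that Loxl2 cross-links. None of 6 passed in edgeR, 2 had an unadjusted p below 0.05, both higher, and DESeq2 called 1 higher. The most abundant chains, Col4a1 and Col4a2, were high in control 3 and PM2.5 library 1, at 754 and 713 CPM for Col4a1, and the groups overlapped. Col4a5 had 86.6, 112 and 76.0 CPM in controls and 132, 152 and 168 CPM after exposure, with a log2 fold change of 0.72 ± 0.19 (edgeR adjusted p = 0.118). Col4a6 was at 1.06 ± 0.40 and Col4a4 at 0.35 ± 0.25.

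Elastic fibre proteins, the substrates and scaffolds of Lox and Loxl1, had positive fold changes in 15 of 17 tested genes, with a median log2 fold change of 0.42, against 7709 of 15303 genes with positive values overall. None passed in edgeR, 4 had an unadjusted p below 0.05, all higher, and DESeq2 called 2 higher. The list's summed level overlapped between the groups, at 1019 to 1356 CPM in controls and 1252 to 1430 CPM after exposure. Fold changes were also positive for 6 of 6 smooth muscle markers and 4 of 5 fibroblast and stroma markers, whose part in these values was not tested. Fbln5, which binds Loxl1 and elastin, had 16.5, 15.9 and 19.3 CPM in controls and 29.0, 30.5 and 24.5 CPM after exposure (log2 fold change 0.70 ± 0.18, edgeR adjusted p = 0.115). Fbn2, a fibrillin, was at 1.53 ± 0.43 and Emilin2 at 1.69 ± 0.62. Eln, which encodes elastin itself, had 82.6, 78.6 and 82.6 CPM in controls and 145, 91.7 and 103 CPM after exposure, a log2 fold change of 0.47 ± 0.19. Eln is named for its role and was chosen after its values were seen, as were Col1a1, Col4a1 and Col4a2.

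Of the genes that activate or dock lysyl oxidases, none of 8 tested passed in edgeR, 1 had an unadjusted p below 0.05 and DESeq2 called none. Bmp1, the protease that frees active Lox, was at -0.34 ± 0.19, and Pcolce, which enhances that protease on procollagen, was at 0.31 ± 0.15. Postn, a matricellular protein that binds Bmp1, had 16.1, 8.14 and 3.03 CPM in controls and 100, 66.5 and 4.05 CPM in PM2.5 libraries, so that PM2.5 library 3 lay within the control range. Its log2 fold change of 2.65 ± 1.08 was 1.96 without PM2.5 library 1 and 3.36 without control 1.

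In the list of collagen hydroxylation and folding, 1 of 14 tested genes changed in edgeR. At an unadjusted p below 0.05 there were 3 higher and 2 lower, and DESeq2 called P4ha1 lower and Fkbp10, a collagen chaperone named after its values were seen, higher (DESeq2 adjusted p = 0.0298). P4ha1, the catalytic subunit of the prolyl hydroxylase that stabilises the collagen helix, had 118, 148 and 123 CPM in controls and 58.9, 53.1 and 65.7 CPM after exposure, and every exposed library was below every control. It fell by 1.13 ± 0.15 on the log2 scale (edgeR adjusted p = 0.0434). Leaving out any 1 library ended this call, with adjusted p between 0.0706 and 0.231 in edgeR. Genes for copper supply, on which all lysyl oxidases depend, held no change in edgeR or DESeq2 among 5 tested and no unadjusted p below 0.05. Atp7a, the pump that loads copper into secreted enzymes, was at 0.80 ± 0.49, the copper chaperone Atox1 at -0.46 ± 0.26 and Slc31a2 at -0.36 ± 0.23. Of the other copper amine oxidases none was tested. Aoc1 had at most 8 counts in a library, and Aoc2 and Aoc3 were not in the table under those names.

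In the list of TGF-beta and oocyte ligand signals, 1 of 14 tested genes changed in edgeR. At an unadjusted p below 0.05 there were 3 higher and 2 lower, and DESeq2 called 1 higher and 2 lower. Tgfb1, the ligand that raises Lox in many cell types, had 67.2, 66.0 and 120 CPM in controls and 23.8, 19.2 and 26.4 CPM after exposure. Its groups did not overlap, and it fell by 1.87 ± 0.28 on the log2 scale (edgeR adjusted p = 0.0442). Leaving out any 1 library ended the call, with adjusted p between 0.0706 and 0.236 in edgeR. Ccn2, a TGF-beta target, was higher in every exposed library than in any control, with a log2 fold change of 1.08 ± 0.30, and DESeq2 called it higher. Ccn2 was chosen after its values were seen.

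Hypoxia raises Lox, Loxl2 and Loxl4 through HIF-1 in many cells. Of 12 hypoxia factors and targets none passed in edgeR, 2 had an unadjusted p below 0.05, both lower, and DESeq2 called the same 2, Ndrg1 at -1.25 ± 0.42 and Egln3 at -2.58 ± 0.92. Control 2 was high for both, with 190 CPM of Ndrg1 and 31.1 CPM of Egln3, against at most 97.6 and 7.38 CPM in the other libraries. Without control 2 the log2 fold change was -0.75 for Ndrg1 and -1.36 for Egln3. Slc2a1, a glucose transporter, was at -0.75 ± 0.35. Of 7 genes, made up of transcription factors of epithelial to mesenchymal transition and their target E-cadherin, none passed in edgeR. Snai1, the partner of Loxl2, had 35.8, 45.4 and 64.6 CPM in controls and 29.0, 22.3 and 20.8 CPM after exposure (log2 fold change -1.01 ± 0.26, edgeR adjusted p = 0.113). It had the list's only unadjusted p below 0.05, and DESeq2 called it lower. Zeb1 was at -0.42 ± 0.19 and Twist2 at 0.87 ± 0.88, which became 0.087 without PM2.5 library 2.

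**Figure D3:**
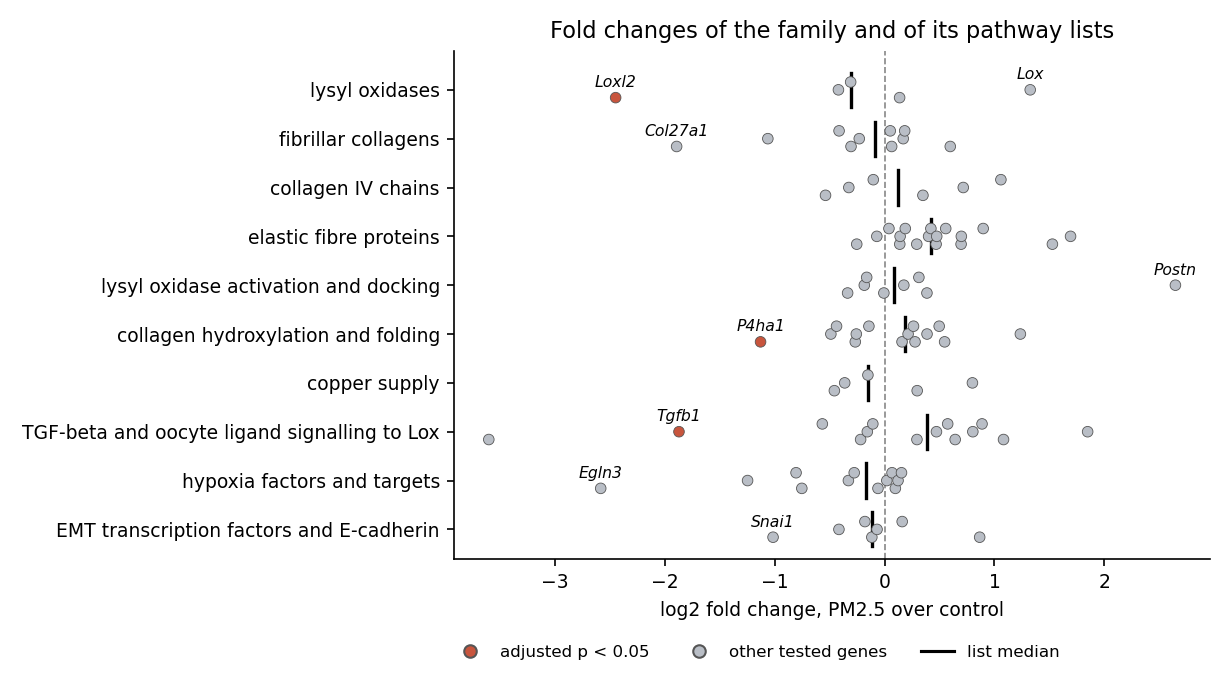
Each point is the log2 fold change of 1 tested gene, PM2.5 over control, in the lysyl oxidase family and in each pathway list, with red for an adjusted p below 0.05 in edgeR and a black bar at the list median. Loxl2, P4ha1 and Tgfb1 are the red points, all lower, and the elastic fibre median lies at 0.42.

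The genes most like each member in pattern were found by Pearson's r of log2(CPM + 1) over the 6 libraries, among at least 13074 other named genes that averaged 1 FPKM or more. These values are descriptions, since with 6 libraries high values arise easily and the difference between the groups sets much of the likeness. Nearest to Loxl2 were Plk2, a polo-like kinase (r = 0.999), Nab2, a corepressor of Egr factors (r = 0.997), and Krcc1 (r = 0.996). Plk2 and Nab2 were among the genes lower after exposure, at -1.37 ± 0.17 and -1.55 ± 0.18 on the log2 scale (edgeR adjusted p = 0.0434 for each), and Krcc1 had -0.81 ± 0.13 (adjusted p = 0.0510 in the same test). Each of the 3 had its lowest control value in control 1 and its highest exposed value in PM2.5 library 1, as Loxl2 did.

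**Figure D4:**
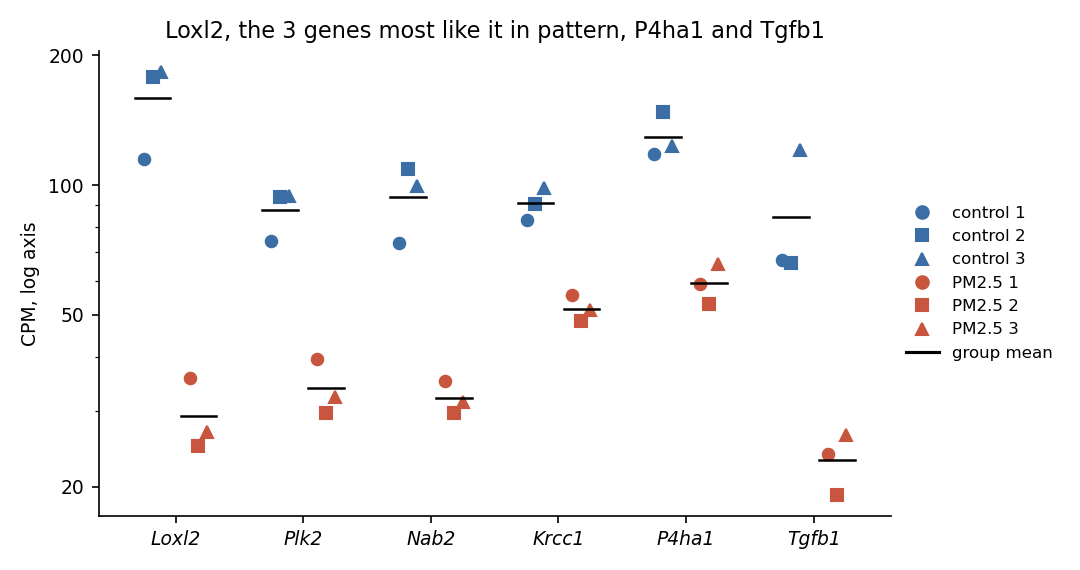
CPM on a log axis for Loxl2, for Plk2, Nab2 and Krcc1, and for P4ha1 and Tgfb1, with 1 point per library (control blue, PM2.5 red, marker shape for the replicate number) and a line at each group mean. In all 6 genes every PM2.5 library lies below every control, and Loxl2 has the widest gap, from 159 to 29.1 CPM on average. The genes beside Loxl2 were chosen for likeness to it or for being called lower, which largely sets this separation. Among all genes tested, 15.2% were apart and lower.

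Nearest to Lox were the pseudogene Fam98b-ps1 (r = 0.993), Zfyve9, which anchors SMAD proteins to TGF-beta receptors (r = 0.988), and Hbp1 (r = 0.986), none of which passed in edgeR. Nearest to Loxl3 was Col5a3 (r = 0.975), followed by LOC120094458 (r = 0.969) and Rheb (r = 0.960). Loxl1 lay closest to Syne1 (r = 0.983), Actr2 (r = 0.978) and Prrg2 (r = 0.977). Loxl4, whose pattern is the high value of control 2, lay closest to Klhl21 (r = 0.997), Gnai3 (r = 0.983) and Socs6 (r = 0.979).

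Markers of other cells were set beside the members, and none of those in the table was at 0 in all libraries. Of 4 tested T and NK cell markers 1 was called lower with Loxl2, Gzmb, a granule protease, which went from 25.1 ± 16.1 to 1.42 ± 0.873 CPM (mean ± SD, n = 3). The list's summed level, in which Gzmb had the highest control mean, was 33.1 to 63.5 CPM in controls and 14.6 to 19.4 CPM after exposure. The other tested markers did not pass, with log2 fold changes of -0.72 for Ptprc, -0.35 for Nkg7 and 0.47 for Cd8a, and the T cell genes Cd3e and Cd3d were at 1.41 CPM or less in every library. The summed erythroid markers moved the other way, from a range of 784 to 1043 CPM to one of 2736 to 4267 CPM. Of the 5, edgeR called 3 higher, Hba-a1, Hbb and Alas2, against 0.190% of all genes. Hba-a3 was at a log2 fold change of -0.14 and Ahsp at 0.27, and neither passed. The summed adipocyte markers were also apart between the groups, at 8.99 to 15.5 against 17.3 to 58.4 CPM. Among them Adipoq had 33.3, 33.8 and 2.60 CPM in PM2.5 libraries 1 to 3, against at most 1.94 CPM in controls. Fabp4 was apart as well, at a log2 fold change of 0.80, while Plin1 was at -0.04. The summed oviduct markers were apart too, at 7.98 to 26.7 against 33.3 to 101 CPM. In that sum the mean of Pax8 went from 7.52 to 52.3 CPM, while Tekt1 overlapped between the groups. Ovgp1 and Foxj1 were not in the table. In the adipocyte and oviduct lists edgeR called no gene. DESeq2 called 1 higher in each, Adipoq and Pax8 (DESeq2 adjusted p = 3.2e-05 and 0.00367), against 11.5% of all genes called. The part of these cells in the fall of Loxl2 was not tested. The summed levels of the fibroblast and stroma markers and of the endothelial markers overlapped between the groups, at 240 to 649 against 496 to 584 CPM and at 280 to 473 against 271 to 457 CPM, with none of 5 called in either list by edgeR or DESeq2. At an unadjusted p below 0.05 the fibroblast list had none and the endothelial list 2 higher and 1 lower, against 20.9% of all genes. Single endothelial markers had groups apart in both directions, Cdh5 lower at 80.8 to 156 against 43.2 to 79.0 CPM and Tek higher at 32.8 to 41.8 against 48.8 to 55.1 CPM. Among all genes tested, 27.2% had groups apart. Sums of the granulosa, theca, luteal, macrophage and neutrophil lists overlapped as well, and edgeR called none of their genes. DESeq2 called 1, the theca marker Insl3, lower (DESeq2 adjusted p = 0.0409). Insl3 had 42.0 to 55.0 CPM in controls and 31.9 to 35.4 CPM after exposure. Of 5 theca markers 3 had positive fold changes and 2 negative. With Lox, all 6 smooth muscle markers had positive fold changes, with none called by edgeR and 2 by DESeq2, against 11.5% of all genes. At an unadjusted p below 0.05 there were 3, against 20.9% of all genes. The sum of all 6 was 477 to 1007 CPM in controls and 758 to 3796 CPM after exposure. It was lowest in control 3, where Lox was lowest, but highest in PM2.5 library 2, where Lox was lowest of the exposed libraries. All 6 tested ovarian surface epithelium markers also had positive fold changes. Of these edgeR called none, DESeq2 called 1, and 2 had an unadjusted p below 0.05. The list's sum was 24.5 to 95.4 CPM in controls and 61.0 to 395 CPM after exposure. All 7 oocyte markers had positive fold changes too, with none called by either tool, against 7709 of 15303 genes with positive values overall. Their sum overlapped between the groups, at 37.0 to 152 CPM in controls and 71.6 to 241 CPM after exposure. The part of these cells in the level of Lox was not tested.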

How the data were processed

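Per the labels' protocols, ovarian RNA was extracted with Trizol, enriched for poly(A), made into strand-marked (dUTP) libraries and read as pairs. HISAT2 2.2.1, StringTie 2.1.6, cutadapt 1.9, edgeR and DESeq2 appear, with no role, per the submitters' processing notes. Genome build, annotation and whether counting used strand: not given in the sources used here. The deposited table holds whole-number counts per gene and library, and FPKM values that the authors normalised for length and depth. The mouse reference supplied was not used, and no sequence is printed.

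edgeR 4.0.16 (R 4.3.3) was run on the deposited counts of genes averaging 0.5 FPKM or more, with TMM factors and the quasi-likelihood test of PM2.5 over control. Two-sided p-values received Benjamini-Hochberg adjustment over all genes at 0.05. The SE is the log2 fold change divided by the square root of F. CPM values use TMM factors. DESeq2 1.42.0, limma 3.58.1 on log2(FPKM + 1) or log2(FPKM + 0.1), other scalings and filters, a block by replicate number and removal of each library in turn were alternatives. Between libraries of a group chi-square per degree of freedom was at least 134, so no library repeats another within sampling noise, which does not show that they are separate animals. The members and lists were chosen with earlier results of these data known. Named genes are the members and, in each list, the genes called or else the 3 with the smallest p. The 3 genes nearest each member are named too, and others are said to be chosen after their values were seen. Marker genes appear where their list moved with or against a member, except Cdh5, Tek and Insl3. Cdh5 and Tek were named because their groups were apart, and Insl3 because DESeq2 called it. The values of 1 gene of the TGF-beta list are not reported here.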

Additional observations from a re-analysis of the deposited data

How the results depend on the processing

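The fall of Loxl2 passed in all 8 settings that kept the 6 libraries without a block, with log2 fold changes from -2.45 to -2.22. Its adjusted p was 2.9e-16 with DESeq2 but 0.0318 to 0.0495 in the edgeR and limma settings, close to the threshold of 0.05. With the replicate block the fall was -2.44 and did not pass (edgeR's quasi-likelihood adjusted p = 0.103). With 1 library left out it was -2.63 to -2.33 and did not pass, where fewer samples entered the test. The members changed numbered 1, 2 with DESeq2, 0 with the replicate block and 0 to 0 with a library left out (edgeR), where 1 to 3 members had an unadjusted p below 0.05. Lox was 1.34 with DESeq2, where it passed, and Loxl1 and Loxl4 turned direction with a library left out, over -0.11 to 0.34 and -0.61 to 0.32. Loxl4 was not tested with a minimum of 1 FPKM.

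The pathway genes changed numbered 2. They numbered 0 without a filter on low values and 1 with edgeR's own filter (23 at an unadjusted p below 0.05 in each), 12 with DESeq2, 0 with the replicate block (15 unadjusted) and 0 with a library left out (14 to 23 unadjusted). Of 343 values of the 23 named pathway genes none turned direction, 17 lost a call (P4ha1 and Tgfb1) and 7 gained one, all with DESeq2. All genes changed numbered 142, 87 with edgeR's own filter, 8 without any filter, 1767 with DESeq2, 1 with the replicate block (2225 unadjusted) and 0 to 7 with a library left out (1898 to 3493 unadjusted). Other than where a construction is named, the cause was not tested. The deviations of same-numbered libraries correlated at -0.296, 0.133 and -0.0525, and the labels give no pairing, so the number is treated as a name only.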
